A study of Mus musculus with 48 samples.

Results

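The genes of the 4 brush border disaccharidases, Lct, Sis, Treh and Mgam, were followed through postnatal life in mouse small intestine. They were chosen by symbol among the 54532 genes of the count table, and all 4 passed the filter on low counts and were among the 21986 genes tested. The tissue was the first 2 cm of intestine below the stomach, called duodenum, or the last 2 cm above the caecum, called ileum, from C57Bl/6J mice of both sexes. Each of the 16 groups was 1 region at 1 of 8 ages, which were days 0, 2, 4, 6 and 8 and weeks 2, 3 and 4 after birth, with samples numbered 1 to 3. No group was treated, all pups stayed with the dam for the first 3 weeks and then went on to standard chow, and the labels describe the housing as germ-free. The labels do not say on which side of the move to chow the week 3 mice were taken. They also do not state that each sample came from a different animal, so p-values measure the spread between samples, which may be technical.

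Disaccharidases are large glycoproteins anchored in the microvillus membrane of absorptive enterocytes, where they split sugars and starch fragments into monosaccharides that transporters then carry into the cell. Lct encodes lactase-phlorizin hydrolase, which splits the milk sugar lactose, and Sis encodes sucrase-isomaltase, which splits sucrose and the branch points of starch fragments. Mgam encodes maltase-glucoamylase, which releases glucose from the ends of starch fragments, and Treh encodes trehalase, which splits trehalose, a sugar of fungi and insects. In rodents lactase is known as the enzyme of the suckling period, and sucrase-isomaltase and trehalase as enzymes that appear around weaning.

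Levels are given as CPM, which are counts scaled to a common library size with TMM (trimmed mean of M-values) factors, and "called" means an adjusted p under 0.05 in edgeR's quasi-likelihood test. The libraries held 16824021 to 65042327 estimated counts, of which 13.1% to 35.2% were mitochondrial. Although the labels name whole-thickness tissue, 7 smooth muscle genes together reached only 13.3 to 213 CPM, against 3753 to 10369 CPM for 10 pan-epithelial genes. Pancreatic acinar markers summed to at most 608 CPM and gastric markers to at most 102 CPM in any library. In such bulk samples a change in the share of enterocytes and a change in RNA per enterocyte cannot be told apart. The 2 day 6 samples numbered 3 were left out, which leaves 46 samples and 2 in each day 6 group. Pdx1, whose product is a homeobox factor of duodenal and pancreatic tissue, stood at 0.115 CPM in the left-out library labelled duodenum and at 14.6 CPM in the one labelled ileum, when all 48 samples were scaled together. The other libraries spanned 1.81 to 25.0 CPM of Pdx1 in duodenum and 0.0679 to 6.53 CPM in ileum. Treh stood at 1.06 CPM in the left-out library labelled duodenum and at 6.91 CPM in the one labelled ileum.

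The 4 genes lie on different chromosomes, given here in mm10, the build named in the submitters' processing notes. Lct (ENSMUSG00000026354) is on the minus strand at chr1:128284756-128328318, and Sis (ENSMUSG00000027790) on the minus strand at chr3:72888557-72967863. Treh (ENSMUSG00000032098) is on the plus strand at chr9:44673233-44686305, and Mgam (ENSMUSG00000068587) on the plus strand at chr6:40628831-40769123. All 4 are protein coding, and their longest coding sequences hold 5793, 5454, 1728 and 5481 bases for Lct, Sis, Treh and Mgam. Of the 31-base stretches of their transcripts, 0% of those of Lct, 0.202% of Sis, 2.66% of Treh and 0.662% of Mgam also occur in another gene, so few reads could be shared. For Mgam the other gene is the neighbouring pseudogene Mgam2-ps.

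Because 3 of the 4 genes rose together at week 3, the 250 bases before each annotated start are shown, from RefSeq on GRCm38.p6 in the orientation of the gene. These windows lie at chr1:128328319-128328568 (Lct, minus strand), chr3:72967864-72968113 (Sis, minus strand), chr9:44672983-44673232 (Treh, plus strand) and chr6:40628581-40628830 (Mgam, plus strand). Capitals mark the letters of 6 motifs linked to factors known from studies of intestinal genes: GTTAAT for HNF1, TTTAT for CDX, TTTAC also for CDX, GATAA for the zinc finger factors of the GATA family and CAAAG for HNF4, all on either strand. The last motif, searched on the strand shown, was TATAAA for the core promoter element named TATA box.
Lct: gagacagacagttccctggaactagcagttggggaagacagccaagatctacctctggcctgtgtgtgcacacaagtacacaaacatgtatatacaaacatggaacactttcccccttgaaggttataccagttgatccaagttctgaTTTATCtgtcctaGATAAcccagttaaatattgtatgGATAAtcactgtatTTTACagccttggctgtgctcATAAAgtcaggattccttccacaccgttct
Sis: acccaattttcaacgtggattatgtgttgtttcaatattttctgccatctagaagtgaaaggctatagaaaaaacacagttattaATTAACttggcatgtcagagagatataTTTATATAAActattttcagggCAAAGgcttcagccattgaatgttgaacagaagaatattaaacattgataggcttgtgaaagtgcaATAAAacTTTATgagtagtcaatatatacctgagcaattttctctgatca
Treh: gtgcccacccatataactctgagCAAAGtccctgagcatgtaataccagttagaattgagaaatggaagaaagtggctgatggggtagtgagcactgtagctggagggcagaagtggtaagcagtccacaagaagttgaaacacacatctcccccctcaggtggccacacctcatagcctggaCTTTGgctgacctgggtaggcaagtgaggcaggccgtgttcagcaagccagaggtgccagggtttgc
Mgam: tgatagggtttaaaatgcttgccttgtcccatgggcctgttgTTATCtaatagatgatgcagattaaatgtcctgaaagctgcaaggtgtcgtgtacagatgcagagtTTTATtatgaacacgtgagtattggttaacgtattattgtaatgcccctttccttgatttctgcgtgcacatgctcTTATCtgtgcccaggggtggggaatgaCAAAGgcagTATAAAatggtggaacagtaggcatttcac
These windows differed in what they held. Lct had 3 GATA matches, 2 TTTAT matches and 1 TTTAC match, with the nearest TTTAT match at positions -30 to -26 counted from the start and 1 TTTAT match overlapping a GATA match. Sis had 4 TTTAT matches, 1 HNF1 match at -165 to -160, 1 HNF4 match and 1 TATA box match. That TATA box match, at -134 to -129, overlaps a pair of the TTTAT matches and lies farther upstream than that of Mgam. Mgam had 2 TTTAT, 2 GATA and 1 HNF4 match, and a TATA box match at -30 to -25 that overlaps 1 TTTAT match. Treh had 2 HNF4 matches and none of the other motifs. Among 32851 promoter windows of the same length, GTTAAT occurred in 6.43%, TTTAT in 37.3%, TTTAC in 28.3%, GATAA in 22.6%, CAAAG in 48.6% and TATAAA in 7.59%, so most of these short matches are common. A match is a description of letters and shows no binding.

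All 4 genes were called for an effect of age in both regions, where 67.4% of all genes tested were called in duodenum and 58.7% in ileum. The ileal call of Lct was lost when only the ileal groups were fitted (adjusted p = 0.121). From day 0 to week 4, Sis, Treh and Mgam rose in both regions and Lct was not called in either by edgeR, against a background of 40.5% of genes called in duodenum and 41.9% in ileum. Sis rose by 8.03 ± 0.47 (SE) on the log2 scale in duodenum and by 8.24 ± 0.48 in ileum, or 261-fold and 302-fold (edgeR adjusted p = 1.95e-16 and 1.04e-16). Treh rose by 7.65 ± 0.49 and 8.12 ± 0.54 (edgeR adjusted p = 8.02e-15 and 1.53e-14). Mgam rose by 2.07 ± 0.27 and 1.96 ± 0.26, or 4.21-fold and 3.88-fold (edgeR adjusted p = 3.99e-08 and 1.07e-07).

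**Figure D1:**
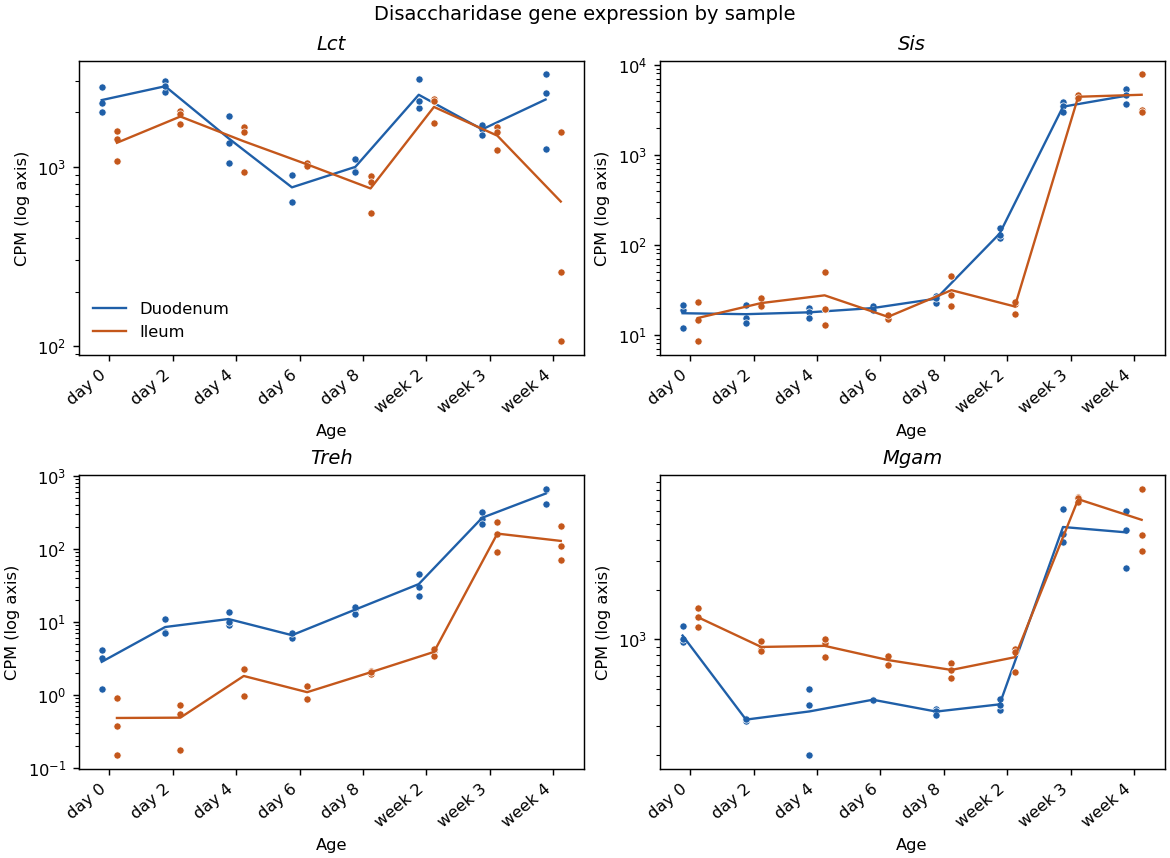
CPM (log axis) of the 4 genes at each age; points are samples and lines join group means, in blue for duodenum and orange for ileum. Sis, Treh and Mgam step up at week 3 in every sample of both regions, whereas Lct dips at days 6 and 8, is back by week 2 and is lowest in 2 of the 3 ileum samples at week 4.

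Lct, the lactase gene, was highest in duodenum at day 2 and lowest in ileum at week 4, but most neighbouring groups in the order of its means overlapped (12 of 15 neighbouring pairs). In duodenum its samples stood at 2767, 2251 and 2016 CPM at day 0 and at 2993, 2615 and 2793 CPM at day 2. They then lay at 1905, 1044 and 1361 CPM at day 4, 630 and 900 CPM at day 6 and 1101, 948 and 937 CPM at day 8. The day 8 samples all lay below every day 2 sample. Between day 2 and day 8 Lct fell by 1.49 on the log2 scale (SE 0.46, edgeR adjusted p = 0.0116, 34.0% of genes called), in a comparison added after its values were seen. In ileum the day 2 samples held 2030, 1715 and 1952 CPM and the day 8 samples 553, 888 and 824 CPM, again without overlap. The ileal difference was -1.33 (SE 0.46, edgeR adjusted p = 0.0597, 9.79% of genes called) and did not pass the threshold, although DESeq2 called it at an adjusted p of 0.0218.

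Summed levels of other enterocyte genes were also lower at day 8. The summed CPM of 12 microvillus structure genes, such as the villin gene Vil1, averaged 6463 at day 2 and 3872 at day 8 in duodenum and 7225 and 4624 in ileum, with no overlap between the samples of the 2 ages. The summed CPM of 4 proliferating crypt markers was higher at day 8, at 1120 to 1435 CPM on day 2 and 5053 to 5820 CPM on day 8 in duodenum and 534 to 853 CPM and 1887 to 2247 CPM in ileum. Olfm4, a crypt base gene, added most CPM of the 4 to these sums, with means of 811 and 4084 CPM in duodenum and 326 and 1511 CPM in ileum. All 4 markers rose in duodenum, by 1.52 (Top2a), 1.59 (Mki67), 1.88 (Lgr5) and 2.33 (Olfm4) on the log2 scale. In ileum Lgr5 and Olfm4 rose by 1.66 and 2.21, and the proliferation genes Mki67 and Top2a were not called, at 0.70 and 0.73 (edgeR adjusted p = 0.121 and 0.0535). The part of both lists in the fall of Lct was not tested. As a share of the summed microvillus CPM of the same library, Lct stood at 43.3% ± 2.72 (SD, n = 3) at day 2 and 25.7% ± 0.982 (SD, n = 3) at day 8 in duodenum. The ileal shares were 26.4% ± 3.13 and 16.2% ± 1.58 (SD, n = 3 each).

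By week 2 Lct had returned to 3078, 2130 and 2323 CPM in duodenum and 2388, 1746 and 2308 CPM in ileum, above all day 8 samples of the region. The rises from day 8 were 1.33 ± 0.46 (SE) and 1.51 ± 0.46 on the log2 scale (edgeR adjusted p = 0.0435 and 0.0424). Leaving out any 1 of the 6 samples of a region ended these calls, with adjusted p of 0.0530 to 0.179 in duodenum and 0.0612 to 0.275 in ileum. At week 3, when Sis had risen, Lct still stood at 1615, 1709 and 1507 CPM in duodenum and 1231, 1661 and 1562 CPM in ileum. Those values were below every week 2 sample of the region, but the differences of -0.64 ± 0.45 (SE) and -0.53 ± 0.45 were not called (edgeR adjusted p = 0.370 and 0.423). The duodenal difference was called when fitted on those 2 groups alone (-0.66, adjusted p = 0.0139), and the ileal one when scaled to the pan-epithelial genes (-1.23, adjusted p = 0.0295). As a share of the microvillus sum, Lct went from 37.4% ± 1.46 at week 2 to 19.6% ± 1.20 at week 3 in duodenum and from 28.1% ± 3.20 to 12.2% ± 1.78 in ileum (SD, n = 3 each), with no overlap in either region. A share also falls when the list sum rises, so these shares do not measure Lct alone. In ileum 5 of the 12 list genes were called higher and 0 lower at this step, and in duodenum 3 higher and 3 lower.

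The regions parted at week 4. Duodenal Lct stood at 1257, 3259 and 2568 CPM and ileal Lct at 1549, 106 and 259 CPM, so ileum sample 1 lay inside the duodenal range and ileum samples 2 and 3 far below it. Lct was lower in ileum by 1.89 (log2 difference -1.89, SE 0.47, edgeR adjusted p = 0.00356), a call not made when those 2 groups were fitted alone (-1.85, adjusted p = 0.234). Against day 0 the ileal difference was -1.09 ± 0.46 (SE, edgeR adjusted p = 0.0546), and against week 3 it was -1.22 ± 0.46 (SE, edgeR adjusted p = 0.0666). The difference from day 0 was called by DESeq2 (-1.04, adjusted p = 0.0410), with a mean count of at least 10 (-1.10, adjusted p = 0.0435), scaled to the pan-epithelial genes (-1.89, adjusted p = 8.75e-04) and by limma on normalized counts plus 1 (-1.92, adjusted p = 0.0104) or plus 0.1 (-1.92, adjusted p = 0.0123). Without ileum week 4 sample 1 these became -2.94 (edgeR adjusted p = 9.72e-09) and -3.04 (edgeR adjusted p = 3.80e-08). Leaving out that sample also gave Lct a called interaction of region and age (edgeR adjusted p = 2.46e-06, against 0.174 with it). Sample 1 was the highest of its group for all 4 genes. The mitochondrial share was 26.9%, 22.1% and 35.2% in ileum samples 1, 2 and 3, and that of sample 3 was the highest of all libraries.

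Sis, the sucrase-isomaltase gene, stayed low in every sample through day 8. Its duodenal samples lay between 11.8 and 27.0 CPM and its ileal samples between 8.43 and 50.2 CPM over those 5 ages, and no step was called. In duodenum it then rose ahead of the ileum. At week 2 the duodenal samples held 154, 117 and 127 CPM, all above the 27.0, 22.7 and 25.7 CPM of day 8, a rise of 2.40 ± 0.37 on the log2 scale (SE, edgeR adjusted p = 7.43e-05). The ileal samples held 16.8, 21.8 and 23.1 CPM at week 2, within or below the 44.7, 21.0 and 27.9 CPM of day 8. At week 3 Sis reached 3821, 3446 and 2991 CPM in duodenum and 4336, 4598 and 4290 CPM in ileum. That step was 25.8-fold in duodenum (log2 4.69 ± 0.40 SE, edgeR adjusted p = 1.74e-11) and 214-fold in ileum (log2 7.74 ± 0.46 SE, edgeR adjusted p = 1.01e-15). Week 4 added no called change, at 3655, 5330 and 4594 CPM in duodenum and 7805, 3163 and 2949 CPM in ileum.

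The difference in timing was tested directly. The ileal change minus the duodenal change was -3.0 ± 0.50 (SE) from day 8 to week 2 (edgeR adjusted p = 0.00423) and 3.06 ± 0.50 from week 2 to week 3 (edgeR adjusted p = 4.00e-04). Without ileum day 8 sample 1, the sample with the highest Sis of its group and 32.7% mitochondrial counts, the earlier difference was -2.65 and its adjusted p was 0.0538. At week 2 itself Sis was 6.45-fold lower in ileum (log2 -2.69 ± 0.37 SE, edgeR adjusted p = 1.89e-06), with no overlap between the regions. At the other 7 ages Sis was not called between regions, with differences from -0.32 to 0.62, but without ileum day 4 sample 2 the day 4 difference was 0.96 and called (adjusted p = 0.0343).

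Treh, the trehalase gene, was the only member below 1 CPM in any group. At day 6 in duodenum Treh held 6.05 and 7.09 CPM, below the 9.01, 9.95 and 13.9 CPM of day 4, but that step was not called. In duodenum its samples stood at 1.22, 3.19 and 4.10 CPM at day 0, 11.1, 7.31 and 7.16 CPM at day 2, 15.2, 12.9 and 16.2 CPM at day 8 and 46, 22.9 and 30.1 CPM at week 2. In ileum they stood at 0.148, 0.919 and 0.380 CPM at day 0, where 4, 22 and 16 counts were seen, and at 3.94, 3.41 and 4.28 CPM at week 2. The duodenal rise from day 0 to day 2 was 1.57 ± 0.40 (SE, edgeR adjusted p = 0.0117), and it lost its call without duodenum day 0 sample 1 (1.20, adjusted p = 0.0966) or day 2 sample 1 (1.31, adjusted p = 0.0708). The duodenal rise from day 8 to week 2 was 1.16 ± 0.37 (SE, edgeR adjusted p = 0.0309), and it lost its call without any of the 3 day 8 samples or week 2 sample 1, with adjusted p between 0.0636 and 0.228 and a change between 0.84 and 1.23. In ileum Treh rose by 1.99 ± 0.55 (SE) between day 2 and day 8 (edgeR adjusted p = 0.0186), a call lost without day 2 sample 2 or 3 or day 8 sample 1, with adjusted p of 0.0976, 0.0555 and 0.0698 and a change of 1.64, 2.06 and 1.96.

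The largest step of Treh came at week 3, as for Sis. Its samples reached 259, 323 and 220 CPM in duodenum and 92.1, 232 and 162 CPM in ileum, above every week 2 sample of the region. The rise from week 2 was 8.11-fold in duodenum (log2 3.02 ± 0.39 SE, edgeR adjusted p = 2.78e-07) and 41.9-fold in ileum (log2 5.39 ± 0.45 SE, edgeR adjusted p = 9.26e-12). The ileal rise exceeded the duodenal one by 2.37 ± 0.54 on the log2 scale (SE, edgeR adjusted p = 0.0139). That difference lost its call without duodenum week 2 sample 1 (2.05, adjusted p = 0.0668), ileum week 2 sample 2 (2.28, adjusted p = 0.0560) or ileum week 3 sample 2 (2.02, adjusted p = 0.0690). At week 4 the duodenal samples held 409, 638 and 673 CPM and the ileal ones 207, 108 and 70.7 CPM. The duodenal gain over week 3 was 1.10 ± 0.37 (SE, edgeR adjusted p = 0.0431) and was not called when any 1 of the 6 samples but week 4 sample 1 was left out, with adjusted p between 0.0605 and 0.149.

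Mgam, the maltase-glucoamylase gene, was already abundant at birth. Its newborn samples held 961, 1201 and 1004 CPM in duodenum and 1186, 1542 and 1363 CPM in ileum. In duodenum the day 2 samples lay at 330, 321 and 330 CPM, all far below day 0, a fall of 1.69 on the log2 scale (log2 change -1.69, SE 0.26, edgeR adjusted p = 4.18e-05). In ileum the day 2 samples lay at 875, 849 and 978 CPM, also below all day 0 samples, with a change of -0.60 ± 0.26 (SE) that missed the threshold (adjusted p = 0.176 in edgeR). Mgam then showed no called step until week 2, with group means between 327 and 431 CPM in duodenum and between 653 and 914 CPM in ileum. At week 3 it reached 6135, 4353 and 3885 CPM in duodenum and 7245, 7148 and 6778 CPM in ileum. Those rises were 11.8-fold (log2 3.57 ± 0.28 SE, edgeR adjusted p = 1.93e-12) and 9.04-fold (log2 3.18 ± 0.28 SE, edgeR adjusted p = 1.18e-11), and their difference was -0.39 ± 0.36 (SE), which missed the threshold (adjusted p = 0.873 in edgeR), with an interval from -1.10 to 0.32. Mgam2-ps, the pseudogene that shares sequence with Mgam, went from 135 to 88.4 CPM in duodenum and from 132 to 85.3 CPM in ileum over the same step, and the ileal change was called (log2 -0.62, edgeR adjusted p = 0.0430).

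The 7 steps between neighbouring ages are set side by side here. From day 0 to day 2, 2 of 4 genes were called in duodenum, Treh higher and Mgam lower, where 6.80% of genes were called. None of the 4 was called by edgeR in ileum at that step (5.20% of genes), with 1 at an unadjusted p under 0.05 and none by DESeq2. The steps to day 4, day 6 and day 8 gave no member call by edgeR in duodenum (25.3%, 5.82% and 0.0728% of genes) or ileum (0.0318%, 1.34% and 0.173%). At an unadjusted p under 0.05 these steps held 1, 0 and 1 genes in duodenum and 1, 0 and 1 in ileum, and DESeq2 called only ileal Treh at the step to day 4 (log2 1.82, adjusted p = 0.0271). From day 8 to week 2, 3 of 4 genes rose in duodenum (15.7% of genes) and 1 in ileum (6.64%). From week 2 to week 3, 3 of 4 genes rose in each region, against 18.3% of genes called in duodenum and 26.8% in ileum. From week 3 to week 4, Treh alone was called in duodenum (12.7% of genes) and no member in ileum (16.1%), where Lct alone was under an unadjusted p of 0.05 and was called by DESeq2 (log2 -1.20, adjusted p = 0.0375). Without ileum week 4 sample 1, Mgam was lower there by 0.89 as well (log2 change -0.89, edgeR adjusted p = 0.0127).

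**Figure D2:**
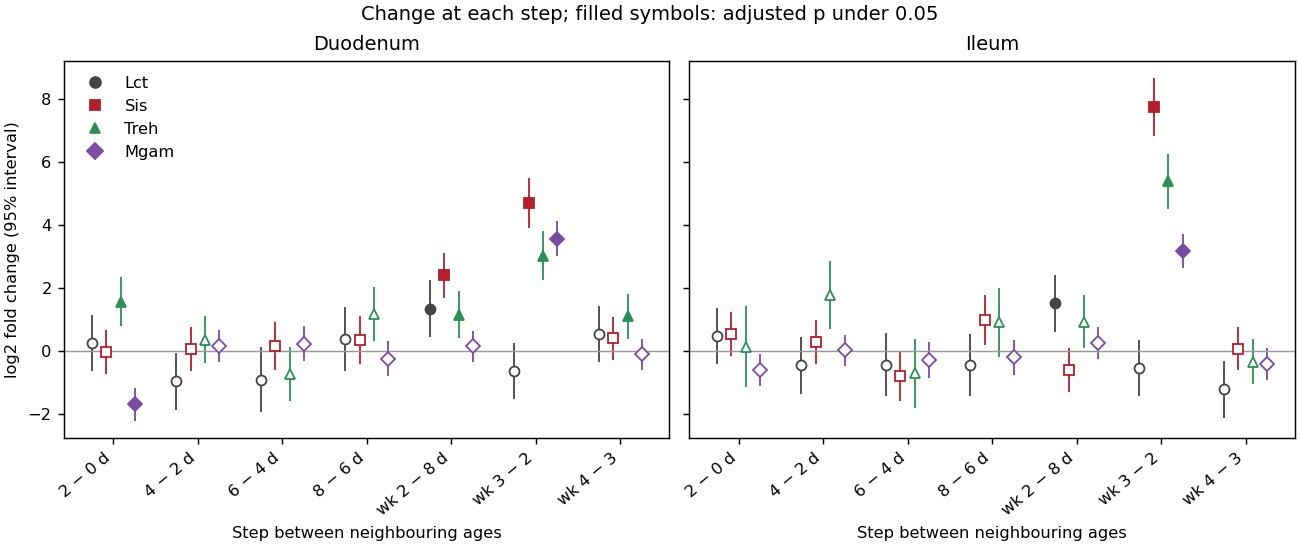
Log2 fold change of each gene at the 7 steps between neighbouring ages, with 95% intervals, by region; filled symbols passed an edgeR adjusted p of 0.05. Sis, Treh and Mgam are filled at the step from week 2 to week 3 in both regions, with the ileal Sis change of 7.74 the highest point.

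Along the intestine the genes had different gradients. Averaged over ages, Treh was 6.04-fold lower in ileum (log2 -2.59 ± 0.16 SE, edgeR adjusted p = 1.84e-15), Mgam 1.76-fold higher (log2 0.82 ± 0.09 SE, edgeR adjusted p = 1.68e-09) and Lct 1.37-fold lower (log2 -0.45 ± 0.17 SE, edgeR adjusted p = 0.0180). Sis was not called (log2 -0.18 ± 0.13 SE, edgeR adjusted p = 0.224), and 62.1% of all genes were called. Without ileum day 4 sample 1 or ileum week 4 sample 1, Sis was called at -0.28 and -0.26 (adjusted p = 0.0290 and 0.0487). Scaled to the pan-epithelial genes, the Lct difference was -0.28 and lost its call (adjusted p = 0.150). Treh was lower in ileum at 7 of 8 ages, including 6.17-fold at day 0, 16.6-fold at day 2, 7.26-fold at day 8, 8.52-fold at week 2 and 4.45-fold at week 4. Only at week 3 did its regional difference of -0.72 ± 0.37 (SE) miss the threshold (edgeR adjusted p = 0.191). Scaled to the pan-epithelial genes, that difference was -1.04 and called (edgeR adjusted p = 0.0287). The ileal day 2 samples held only 23, 4 and 14 counts of Treh. Its day 0 difference lost its call when only the groups compared were fitted (log2 -2.55, edgeR adjusted p = 0.0560). Mgam was higher in ileum at days 2, 4, 6 and 8 and at week 2, by 2.75-fold, 2.49-fold, 1.74-fold, 1.79-fold and 1.93-fold. The day 4 difference of Mgam lost its call when only the groups compared were fitted (log2 1.38, edgeR adjusted p = 0.114). The day 6 difference of Mgam (edgeR adjusted p = 0.0453) rested on 2 samples a group and lost its call without any 1 of the 4, at adjusted p from 0.0908 to 0.196. At day 0, week 3 and week 4 Mgam differed by 0.37, 0.56 and 0.25 on the log2 scale and was not called. Its week 3 difference was called when only the groups compared were fitted (log2 0.60, edgeR adjusted p = 0.0475).

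Counted by age, the members called between regions numbered 1 of 4 at day 0 (6.10% of genes called). The number was 2 on day 2 (8.01%), 2 on day 4 (26.6%), 2 on day 6 (35.3%), 2 on day 8 (39.6%) and 3 in week 2 (22.4%). None was called at week 3 by edgeR with TMM scaling on all 16 groups (14.2%) or by DESeq2, with Mgam alone under an unadjusted p of 0.05. At week 4, 2 were called (28.4%). The interaction of region and age was called for Sis (edgeR adjusted p = 2.03e-04) and Treh (0.00600), and for 22.4% of genes. It was not called for Mgam (0.0734) or Lct (0.174). DESeq2 called Mgam as well, at an adjusted p of 0.0259, and edgeR did so without duodenum day 4 sample 2 (0.0269), duodenum week 4 sample 1 (0.0208) or ileum week 4 sample 1 (0.00576). The regional difference in the step from day 8 to week 2 was called for 1 of 4 members, Sis, and for 0.05% of genes, and that in the step from week 2 to week 3 for 2 of 4 members, Sis and Treh, and 1.38% of genes. The regional difference in the change from day 0 to week 4 was called for no member by edgeR or DESeq2, or at an unadjusted p under 0.05, and for 5.99% of genes. Without ileum week 4 sample 1, that of Lct was -2.92 (edgeR adjusted p = 1.91e-05).

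**Figure D3:**
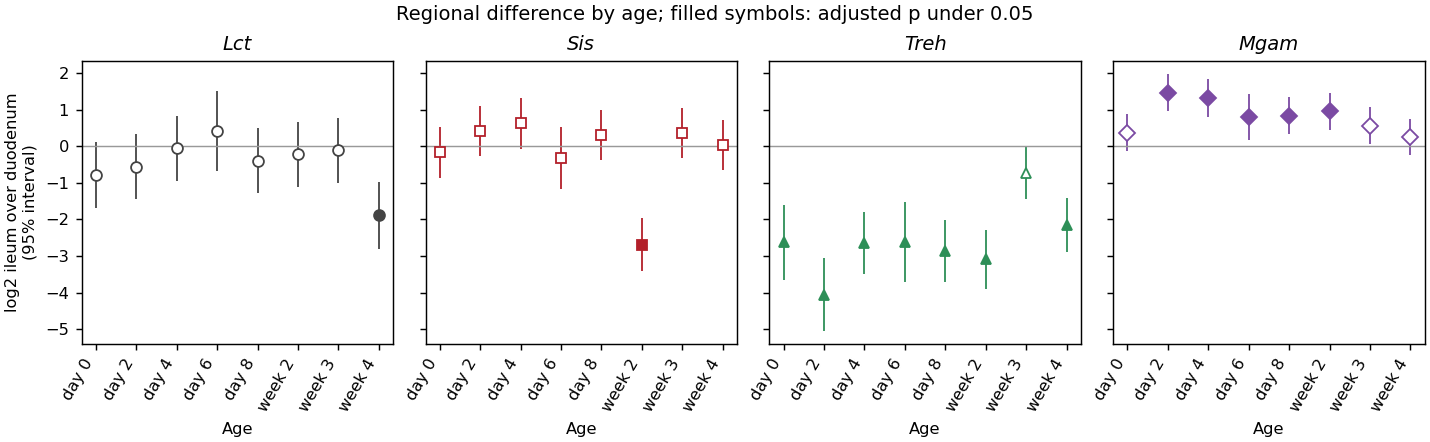
Log2 ratio of ileum over duodenum for each gene at each age, with 95% intervals; filled symbols passed an edgeR adjusted p of 0.05. Treh lies below 0 throughout, Mgam above 0, and Sis and Lct each have 1 filled age, week 2 and week 4.

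To set the genes beside one another, CPM was divided by the coding length in kilobases and expressed as a share of the 4-gene sum. On that scale Lct made up 67.0% ± 5.10 (SD, n = 3) of the newborn duodenal pool and Mgam 32.2% ± 4.79, whereas in newborn ileum the shares were 48% and 51.4%. Lct reached 87.7% of the duodenal pool at day 2 and 78.4% at week 2. At week 3 its share was 14.6% in duodenum and 10.5% in ileum, beside 32.5% and 33.0% for Sis and 44.8% and 52.7% for Mgam. At week 4 Lct made up 16.6% in duodenum and 4.31% in ileum. Treh reached 14.1% of the duodenal pool at week 4 and 3.75% of the ileal pool. The length-scaled sum of the 4 genes went from 551 CPM per kilobase at week 2 to 1934 at week 3 in duodenum and from 519 to 2446 in ileum. The log2 ratio of Sis to Lct per coding length changed sign in that interval in both regions, from -4.15 to 1.17 in duodenum and from -6.62 to 1.67 in ileum, with no overlap between the samples of the 2 ages.

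**Figure D4:**
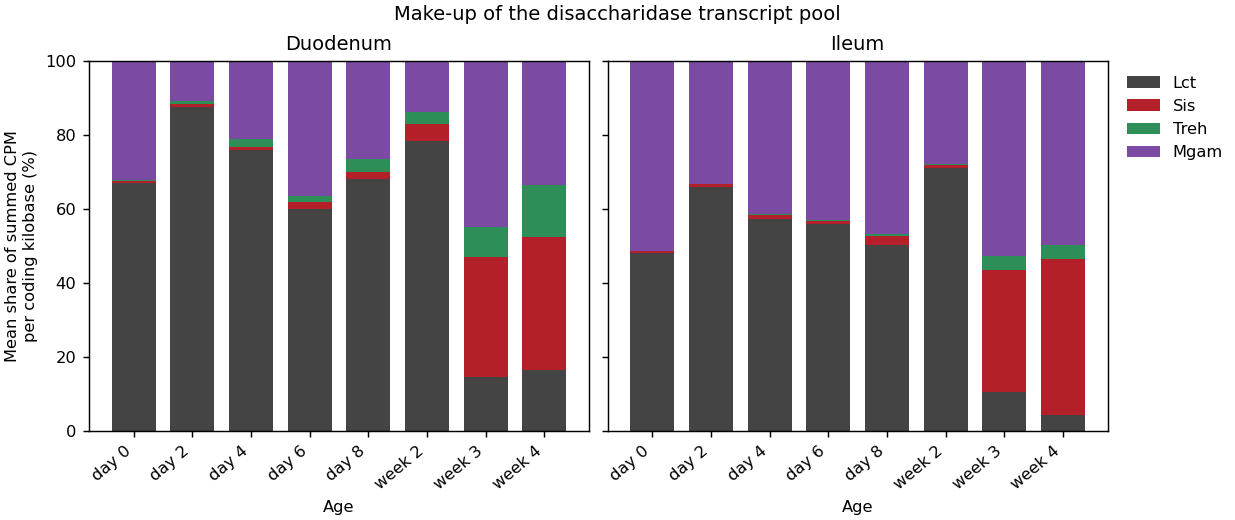
Mean share (%) of each gene in the summed CPM per coding kilobase of the 4 genes, by age and region, with 1 stacked bar per group. Lct fills most of the duodenal bars up to week 2, and Sis and Mgam fill most of every bar at weeks 3 and 4.

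Other genes of sugar handling gave a mixed picture at the step from week 2 to week 3. Of 16 genes of sugar uptake and metabolism, 6 rose and 3 fell in duodenum and 9 rose and 3 fell in ileum, with list medians of 0.57 and 1.24 on the log2 scale, against 0.03 for all genes in either region. For these and the other lists at this step, the share of all genes called was 18.3% in duodenum and 26.8% in ileum. The 4 disaccharidase genes had medians of 3.29 and 4.28. Slc5a1, which encodes the sodium-coupled glucose and galactose transporter SGLT1, rose by 1.86 ± 0.28 in duodenum and 2.66 ± 0.29 in ileum (SE, edgeR adjusted p = 2.53e-06 and 1.72e-09). Slc2a2, which encodes the basolateral transporter GLUT2, changed by 0.84 in duodenum (edgeR adjusted p = 0.192) and rose by 1.53 in ileum (adjusted p = 0.00734). The 3 genes that fell in each region were Galk1, which phosphorylates galactose, and the gluconeogenic genes G6pc and Fbp1, with -1.21, -2.59 and -2.62 in duodenum and -1.72, -4.34 and -3.73 in ileum, and they were picked out after their values were seen.

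Among 16 tested genes of other brush border hydrolases, 8 rose and 1 fell in duodenum and 11 rose and none fell in ileum at that step, with medians of 1.20 and 1.45. Anpep, the aminopeptidase N gene, rose by 1.5 ± 0.25 and 2.97 ± 0.26 (SE). Alpi, the intestinal alkaline phosphatase gene, was not called (0.28 and -0.56). The 12 microvillus structure genes had medians of -0.02 and 0.07, with 3 higher and 3 lower in duodenum and 5 higher in ileum. Of 7 suckling enterocyte genes, which serve protein uptake and citrulline use in the neonatal gut, 5 fell and none rose in each region, with medians of -2.29 and -4.14. Fcgrt, the neonatal Fc receptor gene, fell by 4.98 in duodenum (log2 change -4.98, SE 0.33). Of 10 pan-epithelial genes, 3 rose and 1 fell in duodenum and 4 rose in ileum, with medians of 0.02 and 0.38.

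**Figure D5:**
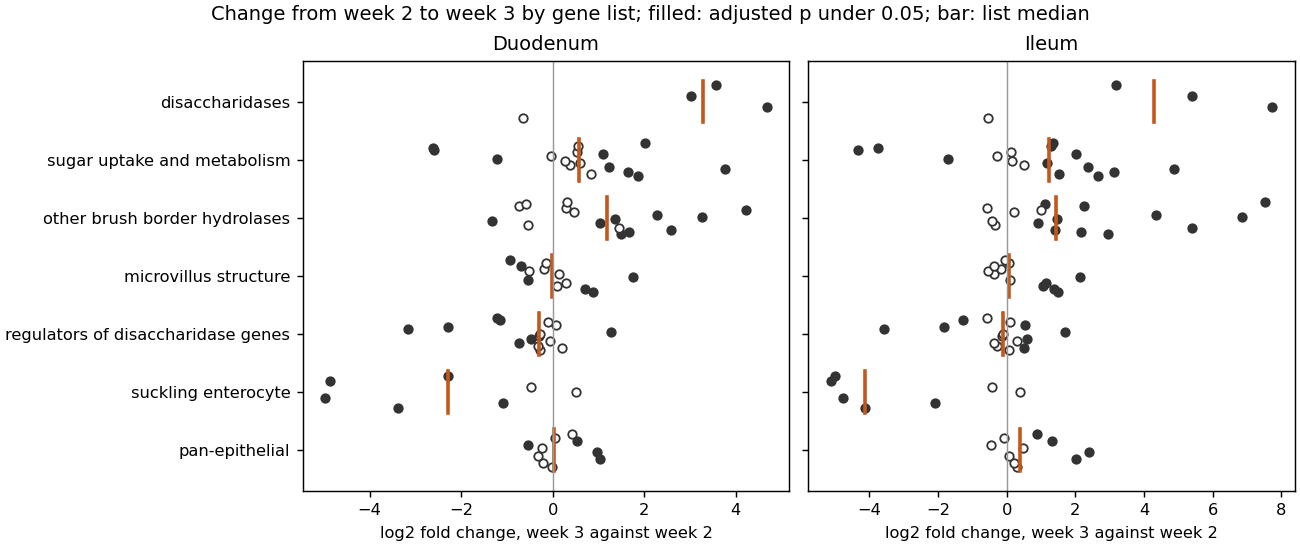
Log2 fold change from week 2 to week 3 of every tested gene in 7 lists, by region; filled points passed an edgeR adjusted p of 0.05 and orange bars are list medians. The disaccharidase medians of 3.29 and 4.28 lie to the right of the other lists, and Lct is the open point left of 0.

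Of 15 genes of factors known to regulate these enzymes, 1 rose and 6 fell in duodenum and 4 rose and 3 fell in ileum between week 2 and week 3, with medians of -0.29 and -0.11. Hnf4a, a nuclear receptor gene, was not called (-0.28 and -0.11), whereas its paralogue Hnf4g rose by 1.27 ± 0.23 and 1.70 ± 0.24 (SE, edgeR adjusted p = 7.35e-05 and 4.07e-07). Nr3c1, the glucocorticoid receptor gene, was not called in duodenum (0.07) and rose in ileum by 0.53 ± 0.19 (SE, edgeR adjusted p = 0.0336). Gata4, a proximal factor gene, was lower in ileum by 1.46 on average over ages (log2 difference -1.46, SE 0.11), and was named after its values were seen. On that average 8 of the 15 genes were called lower in ileum and 1 higher, beside 62.1% of all genes called. Of 5 tested relatives of the members by enzyme family, none rose and 2 fell in duodenum between week 2 and week 3. In ileum 1 rose and 3 fell at that step. Ganab, the glucosidase gene of the endoplasmic reticulum, was not called in either region (0.13 in both).

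Across the 16 group means of log2 CPM, Sis and Treh had a Pearson correlation of 0.89, Sis and Mgam of 0.86 and Treh and Mgam of 0.58, where Spearman's rho was 0.74, 0.47 and 0.22. Within the 8 groups of a region the Pearson values of these pairs were 0.97, 0.89 and 0.78 in duodenum and 0.96, 0.95 and 0.87 in ileum. Lct had correlations of -0.15, -0.03 and -0.17 with Sis, Treh and Mgam over the 16 groups, but 0.23, 0.17 and 0.21 in duodenum and -0.50, -0.45 and -0.36 in ileum. These are descriptions over groups that share libraries and scaling. The genes nearest in course to Lct were Cyp2c40 (0.93, with group means of only 1.64 to 7.60 CPM), Adipor2 (0.91) and Mtmr7 (0.90). Those nearest to Sis were Cyp4f14, Slc41a2 and Slc13a1 (each 0.98), among which Slc13a1, a sulfate transporter gene, averaged 2.88 CPM at week 2 and 55.6 CPM at week 3 in duodenum. Khk, the ketohexokinase gene of fructose metabolism, was nearest to Treh (0.99), followed by Cyp4v3 and Glod5 (each 0.98), and all 3 were also its nearest genes over the 46 single samples. Khk averaged 69.6 CPM in duodenum and 22.8 CPM in ileum at week 2, and 164 and 117 CPM at week 3. Pag1 and Cobl (each 0.97) and Gm49172 (0.96) were nearest to Mgam. Cobl, which encodes an actin nucleator, shared with Mgam a high newborn level, 62.9 CPM at day 0 and 15.4 CPM at day 2 in duodenum, and stood at 206 CPM at week 3.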

How the data were processed

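RNA-seq counts of 48 samples of mouse duodenum and ileum were used. The deposited table holds estimated counts per gene, which the authors made with tximport, per its file name, and left as whole numbers. The authors' 2 normalized tables hold a signal that is each count divided by 1 factor per library, for 40 of the samples. The submitters' processing notes name STAR 2.6.1d, Salmon 0.14.2, DESeq2 1.30.1 and mm10, with no order. Totals of 16824021 to 65042327 counts per sample set the precision.

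The tests used the quasi-likelihood method of edgeR 4.0.16, run in R 4.3.3 (TMM scaling, filterByExpr, robust fit on 16 groups) over 21986 genes and 33 tests, with Benjamini-Hochberg adjustment within each test and a threshold of 0.05. SE is the log2 change over the square root of F, and intervals are 95%. Alternatives used DESeq2 1.42.0 and limma 3.58.1, among others. The 2 day 6 samples numbered 3 were left out. The tests of day 8 against day 2, and levels relative to other lists, were added after the values were seen. Members and lists were chosen with earlier results of these data known. The genes named from a list come from its 3 of highest mean CPM, of which some are not reported here, and for each member the 3 genes with the highest Pearson correlation over group means. Fits were tested on simulated data. Promoters are RefSeq windows of GRCm38.p6.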

Additional observations from a re-analysis of the deposited data

Results flagged for a closer look

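Effects that differed between duodenum and ileum by a direct test are listed here. The interaction of region and age was called for Sis (edgeR adjusted p = 2.03e-04) and for Treh (edgeR adjusted p = 0.00600). The ileal minus the duodenal change of Sis was -3.0 on the log2 scale from day 8 to week 2 and 3.06 from week 2 to week 3. That of Treh was 2.37 from week 2 to week 3.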

How the results depend on the processing

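Over the alternatives and left-out samples, 611 of 681 recomputed counts of called members stayed within 1.5 times the main count, and no direction of a called value was reversed. That limit passes a shift between 2 and 3 or between 3 and 4 members. Gene by gene, the call changed in 46 of 681 values for Lct, 6 for Sis, 35 for Treh and 20 for Mgam. The 3 rises from week 2 to week 3 and from day 0 to week 4 held in both regions under every setting run. The counts that moved were, with all 48 samples, 1 from day 0 to day 2, 1 from day 8 to week 2 and 0 from week 3 to week 4 in duodenum, 0 from day 8 to week 2 and 0 from day 2 to day 8 in ileum, 0 between regions at day 6, and 1 for the interaction and 1 for the regional difference in the step to week 3. With no filter on low counts they were 1 for day 8 to week 2 and 0 for week 3 to week 4 in duodenum, 0 for day 8 to week 2 in ileum, 1 between regions at day 6 and 1 for the regional difference in the step to week 3. Scaled to the pan-epithelial list they were 1 for day 2 to day 4 and 0 for week 3 to week 4 in duodenum, 0 for day 8 to week 2 in ileum, 1 between regions at week 3 and 4 for the interaction. Fitted on only the groups compared they were 2 for day 6 to day 8 and 3 for day 2 to day 8 in duodenum, 1 for day 0 to day 2, 2 for day 8 to week 2 and 3 for day 2 to day 8 in ileum, and 0 at day 0, 1 at day 4, 1 at week 3 and 1 at week 4 between regions. DESeq2 gave 1 for day 2 to day 4, 1 for week 3 to week 4 and 2 for day 2 to day 8 in ileum. The 40 samples with a normalized column, and a mean count of at least 10, each gave 2 for day 2 to day 8 in ileum. Limma on normalized counts plus 1, and plus 0.1, gave 0 for day 8 to week 2 and 1 for week 3 to week 4 in ileum. The cause was not tested.

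Leaving out 1 sample at a time gave 1 to 2 called members for day 0 to day 2, 1 to 2 for day 8 to week 2 and 0 to 1 for week 3 to week 4 in duodenum, 0 to 0 for day 8 to week 2, 0 to 2 for week 3 to week 4 and 0 to 1 for day 2 to day 8 in ileum, and 1 to 1 between regions at day 6. The interaction gave 2 to 4, and the regional differences gave 0 to 1 in the step to week 2, 1 to 2 in the step to week 3 and 0 to 1 from day 0 to week 4. Among the genes most like each member, Spearman in place of Pearson correlation shared 0 of 3 for Lct, 0 for Sis and 1 for Mgam.

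The labels do not say that samples of the same number share an animal. Deviations of same-numbered samples across regions had a mean correlation of 0.155 over 23 pairs, from -0.363 to 0.672, and 16 of them were over 0.1, against a mean of -0.0790 and 10 of 44 for other-numbered samples of the same age. Deviations were taken from each group's mean, so the same-numbered and other-numbered correlations are not independent. The day 6 pairs, with 2 samples a group, hold the same value of 0.187 by construction. All 3 pairs were over 0.1 at day 0, day 2, week 2 and week 3 but not at day 4, day 8 or week 4, so the numbers were not taken as pairs. With samples of 1 age and number as a block, the regional counts were the same at those 4 ages, and at week 3 no member was called (Mgam 0.59, adjusted p = 0.184; Treh -0.80, adjusted p = 0.131). That block gave 1 member called between regions at day 6. Tests of age cannot use it, so there the sample number within a region was the block instead. Same-numbered samples of different ages in a region had a mean correlation of -0.0223, against 0.0117 for other-numbered ones. With this number block, 0 members were called for week 3 to week 4 in duodenum and 0 for day 8 to week 2 in ileum. Lct from day 8 to week 2 had an adjusted p of 0.0553 in duodenum and 0.0657 in ileum, and ileal Lct from day 0 to week 4 one of 0.0377. Counting depth limited only Treh in ileum, with as few as 4 counts in a sample.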
